A study of Homo sapiens with 6 samples.

Results

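The clustered protocadherins are cell adhesion genes that lie side by side on chromosome 5 in 3 groups, the alpha, beta and gamma clusters. They were taken from the deposited expression table by symbol, as every gene named PCDHA or PCDHAC, PCDHB, or PCDHGA, PCDHGB or PCDHGC with a number. This gave 54 of the 35856 genes listed, with 16 alpha, 16 beta and 22 gamma members. All lie on the plus strand of hg38, the alpha members from 140786136 (start of PCDHA1) to 141012347, the beta members from 141051374 (start of PCDHB1) to 141249365 (end of PCDHB15), and the gamma members from 141330571 (start of PCDHGA1) to 141512981. PCDHA14 met the name rule but is annotated as a transcribed pseudogene.

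RNA was sequenced from HCCLM3, an established human hepatocellular carcinoma line with high metastatic capacity. One group of 3 libraries came from cells transfected with a vector carrying the long non-coding RNA LINC00862, and the other 3 came from cells given the empty vector, named NC in the sample labels and Empty here. Whether the sequenced cells carried the vectors transiently or as a selected line was not stated, nor whether the 3 libraries of a group came from separate cultures, so p-values measure the spread between these libraries. The comparison was set up to ask how transcript levels differ when LINC00862 is overexpressed.

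Each alpha and gamma protein is encoded by its own large variable exon, read from its own promoter and spliced to constant exons shared by the whole cluster, while each beta gene is a single coding exon with no shared part. The proteins bind identical copies of themselves on neighbouring membranes, and the set that a neuron expresses gives it a surface identity by which its branches avoid each other. Promoter choice is linked to CTCF, cohesin and DNA methylation, and members of all clusters are reported as silenced by promoter methylation in several cancers. The C-type members (PCDHAC1, PCDHAC2, PCDHGC3, PCDHGC4 and PCDHGC5) stand at the ends of the alpha and gamma clusters and are expressed more evenly among neurons than the others.

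LINC00862 (ENSG00000203721) had 11, 21 and 6 reads in Empty libraries 1, 2 and 3 and 145, 121 and 76 in LINC00862 libraries 1, 2 and 3, without overlap (log2 fold change 3.22, standard error 0.53, adjusted p = 0.000583, edgeR quasi-likelihood test with Benjamini-Hochberg adjustment, as for all adjusted p-values here). Without Empty library 2 the log2 fold change was 3.83. Total counts lay between 58241123 and 68229070. After the filter on low counts 20741 genes were tested, of which 34.4% were higher and 29.8% lower in LINC00862, and their median log2 fold change was 0.11. The groups also stood apart in markers of cell type. The summed FPKM (fragments scaled by transcript length and by library size) of 6 epithelial markers was 0.909 to 1.34 in Empty and 236 to 258 in LINC00862, with 6 of 6 higher. That of 9 mesenchymal markers was 585 to 651 in Empty and 16.9 to 20.7 in LINC00862, with 4 lower (VIM, THY1, PDGFRB and FN1), 2 higher (COL1A1 and LUM) and 3 not called. VIM, the intermediate filament vimentin, was at 539 ± 50.1 FPKM in Empty and 3.77 ± 0.102 in LINC00862, and EPCAM, an epithelial adhesion protein, at 0.547 ± 0.0819 and 160 ± 10.8 (SD, n = 3 each). Of 12 hepatocyte and hepatoma markers 10 were tested, with 7 higher, 2 lower (AFP and SERPINA1) and KRT8 not called, and their sums were 196 to 290 in Empty and 792 to 921 in LINC00862. KRT8 and KRT18 made up most of the sums in Empty. FGB, with 598, 529 and 525 FPKM in LINC00862 libraries 1, 2 and 3, made up most of those in LINC00862. In the Empty libraries, TTR and GPC3 had no read and ALB had 0, 0 and 7 reads, whereas the keratins KRT8 and KRT18 were abundant in every library. In the LINC00862 libraries AFP had no read. Neuron markers, relevant because neurons are the cells best known for these genes, gave 2 higher (SNAP25 and GAP43), 2 lower (MAP2 and TUBB3) and 4 not called among 8 tested, with sums of 15.6 to 19.95 in Empty and 3.42 to 3.66 in LINC00862. TUBB3 made up most of these sums, with 14.5, 15.5 and 19.2 FPKM in Empty and 2.65, 2.20 and 2.53 in LINC00862. The groups thus differed in cell type markers as well as in the vector, and a response to LINC00862 cannot be told apart from any other difference between the cells of the 2 groups. The part of these marker differences in the protocadherin results was not tested, and fewer cells of a type cannot be told apart from less RNA per cell.

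The promoters are shown first, because each member starts from its own. They were taken from RefSeq (GRCh38.p14), in which 47 of the 54 members had an entry (13 alpha, 14 beta and 20 gamma). The 100 bases before the start are printed 5′ to 3′ on the plus strand for members that the results turn on, with RefSeq starts at most 32 bases from the start in the deposited table. Capitals mark CGCT wherever it stands on the printed strand. These letters are the core of the conserved promoter element of these genes, where CTCF is known to bind, but not every CGCT printed belongs to that element, and the letters around the CGCT of PCDHGB7 and around the second CGCT of PCDHB4 and PCDHGC3 match none of the longer forms given after the sequences. Each line says whether the member was higher, lower or not called in LINC00862.
PCDHA6 (alpha, higher, chr5:140827860-140827959): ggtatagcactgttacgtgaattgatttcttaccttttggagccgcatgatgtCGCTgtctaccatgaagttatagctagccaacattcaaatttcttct
PCDHA12 (alpha, higher, chr5:140875208-140875307): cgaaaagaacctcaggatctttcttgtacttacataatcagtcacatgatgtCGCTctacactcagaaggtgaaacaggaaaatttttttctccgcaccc
PCDHB4 (beta, higher, chr5:141121718-141121817): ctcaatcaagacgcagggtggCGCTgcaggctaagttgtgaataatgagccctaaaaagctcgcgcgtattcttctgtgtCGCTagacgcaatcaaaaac
PCDHB5 (beta, higher, chr5:141135106-141135205): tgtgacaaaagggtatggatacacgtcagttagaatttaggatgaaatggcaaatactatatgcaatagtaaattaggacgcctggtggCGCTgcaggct
PCDHB12 (beta, not called, chr5:141208619-141208718): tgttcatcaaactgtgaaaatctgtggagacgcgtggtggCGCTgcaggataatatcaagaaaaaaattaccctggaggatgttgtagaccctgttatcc
PCDHGA2 (gamma, higher, chr5:141338660-141338759): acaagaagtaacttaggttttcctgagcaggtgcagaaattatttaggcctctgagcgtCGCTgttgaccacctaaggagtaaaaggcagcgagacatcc
PCDHGA6 (gamma, not called, chr5:141373791-141373890): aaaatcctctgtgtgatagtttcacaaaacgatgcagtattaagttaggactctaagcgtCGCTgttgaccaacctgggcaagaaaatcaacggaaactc
PCDHGB7 (gamma, lower, chr5:141417577-141417676): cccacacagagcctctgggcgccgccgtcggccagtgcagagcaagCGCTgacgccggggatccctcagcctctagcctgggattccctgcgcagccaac
PCDHGC3 (gamma, lower, chr5:141475866-141475965): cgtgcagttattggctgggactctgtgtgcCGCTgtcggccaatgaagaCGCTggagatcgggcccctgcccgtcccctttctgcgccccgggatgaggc

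CGCT stood on the strand of the gene in these 100 bases in 12 of 13 alpha, 13 of 14 beta and 19 of 20 gamma members, against 28.1% of 35116 RefSeq promoters. The exceptions were PCDHA9, PCDHB8 and PCDHGB2. It stood before 28 of 30 members that were higher in LINC00862 and 16 of the 17 others. The others include PCDHAC2, PCDHB1, PCDHGA9 and PCDHGC4, which were not tested. The letters were thus shared by members called higher, called lower and not called. Over the 300-base window on either strand, 46 of 47 members held it, against 70.01% of all promoters. The letters around the core differed by cluster. GATGTCGCT was found in 9 of 13 alpha promoters and no beta or gamma promoter (0.105% of all promoters), and GGTGGCGCT in 13 of 14 beta promoters and no alpha or gamma promoter (0.501%). In the gamma cluster, GCCGCTGT occurred in 11 of 20 (1.63%) and GTCGCTGTT in 6 of 20 (0.154%). PCDHGA2, which was higher in LINC00862, and PCDHGA6, which was not called, both carried GTCGCTGTT. These longer forms, which all contain CGCT, were picked after the promoters had been read and are a description, not a site of binding.

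Read across the whole locus, the alpha and beta clusters were higher in LINC00862, and the gamma cluster was mixed. Of the 54 members 47 passed the filter. Of these 34 were higher, 2 lower and 11 not called, against 34.4% higher and 29.8% lower among all tested genes. The median log2 fold change of the 47 was 3.70, or 3.24 with members at 0 in every Empty library set at their lower bound, against 0.11 for all genes. The FPKM of the 36 called members, and of no other tested member, did not overlap between the groups, whereas over all tested genes 34.4% lay higher and 36.6% lower without overlap. The filter can pass a gene on its reads in a single group, so the counts of tested members describe them and test nothing further. Reads in the constant exons cannot by themselves be assigned to a member. In GENCODE 29 a member shared 21.3 to 100% of its exonic bases with another in the alpha cluster (median 46.6%) and 27.6 to 64.4% in the gamma cluster (median 43.8%), but none of the 16 beta members shared any. How such reads, reads from near-identical beta paralogs, and antisense reads were counted is not given in the sources used here. Single values of alpha and gamma members are therefore uncertain, and whether the cluster sums are less affected was not tested.

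**Figure D1:**
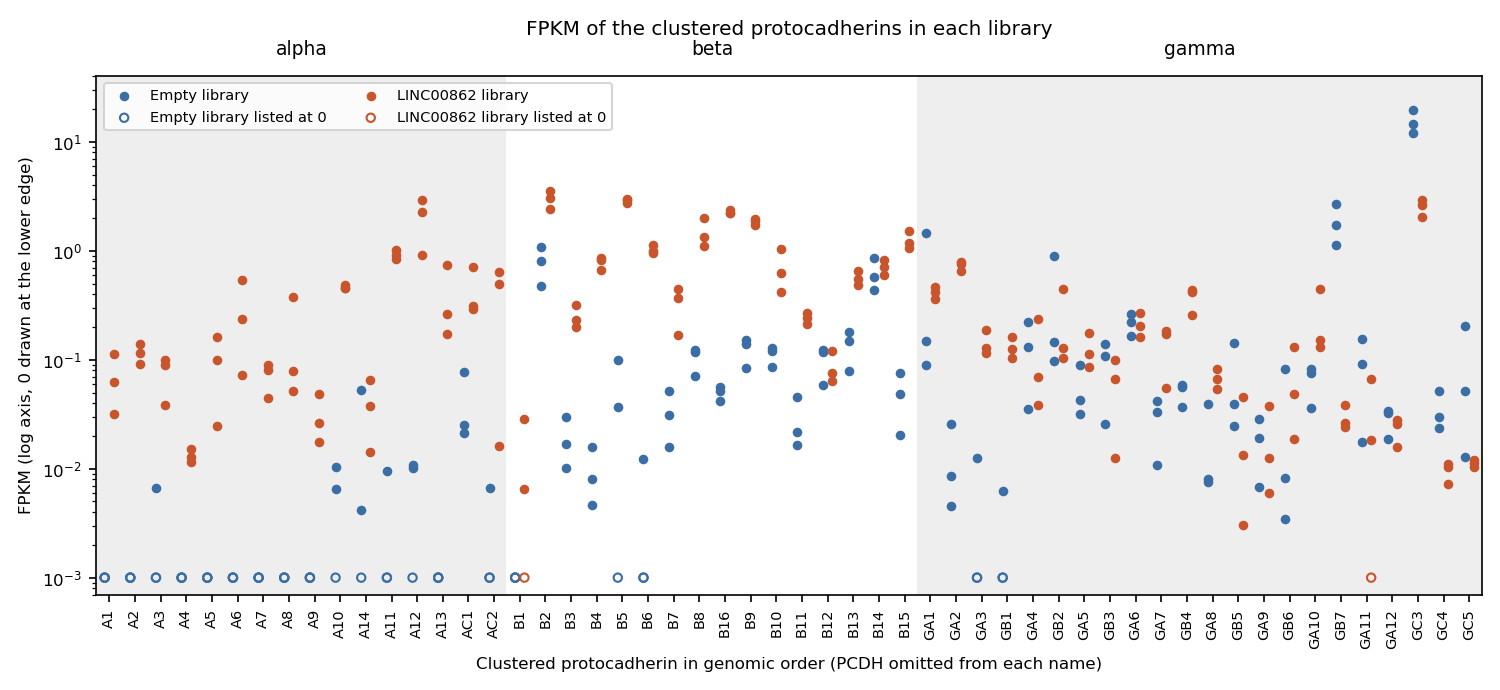
FPKM of each of the 54 members in genomic order on a log axis, with 3 points for the Empty libraries and 3 for the LINC00862 libraries and open points for libraries listed at 0. The LINC00862 points lie above the Empty points for 14 of 14 tested alpha and 13 of 15 tested beta members, and PCDHGC3 and PCDHGB7 lie highest in Empty.

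The summed level moved in opposite directions between clusters. The alpha cluster had 25, 52 and 28 reads in Empty libraries 1, 2 and 3 and 2981, 2820 and 2164 in LINC00862 libraries 1, 2 and 3. In CPM (counts scaled to library size, here after TMM) this was 0.568 ± 0.265 and 45.2 ± 3.67 (SD, n = 3 in each group), a 79.5-fold difference. TMM assumes that most genes do not differ between libraries, whereas 34.4% of tested genes were called higher and 29.8% lower. The beta cluster had 831, 598 and 471 reads in Empty and 5176, 4966 and 4338 in LINC00862, or 10.04 ± 2.28 and 82.5 ± 3.06 CPM (SD, n = 3), which is 8.22-fold. The gamma cluster went the other way, with 9348, 5334 and 6077 reads in Empty and 2752, 2454 and 1883 in LINC00862. Its level was 109 ± 26.04 in Empty and 40.1 ± 3.64 CPM in LINC00862 (SD, n = 3), so that Empty was 2.73-fold higher. No cluster sum overlapped between the groups. Over all 54 members the sums were closer, 120 ± 27.6 CPM in Empty and 168 ± 8.20 in LINC00862 (SD, n = 3), a 1.40-fold difference. The sums are descriptions without a test.

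**Figure D2:**
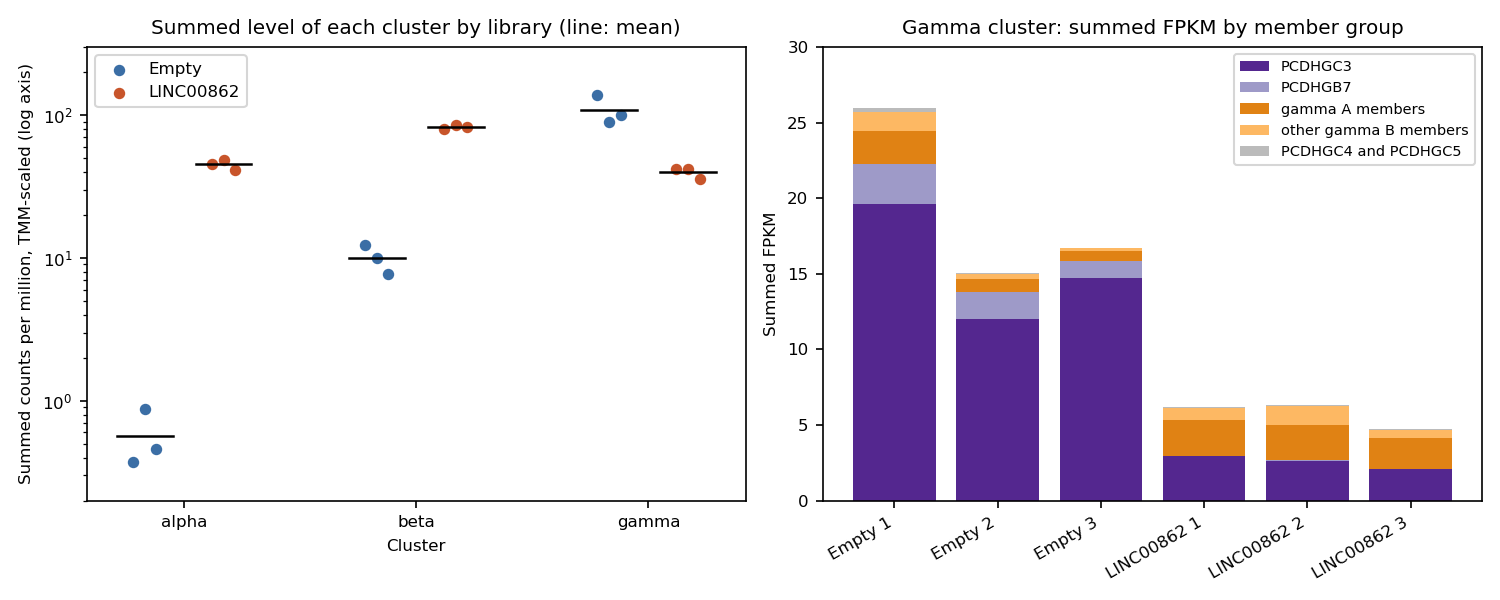
Left, summed TMM-scaled CPM of each cluster in each library on a log axis, with a line at the group mean. Right, summed FPKM of the gamma cluster in each library, stacked by member group from 0, in which PCDHGC3 makes up 75.4 to 87.8% of the Empty bars and 42.1 to 47.5% of the LINC00862 bars.

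The set of members behind these sums also differed. With at least 10 reads taken as detected, Empty libraries 1, 2 and 3 held 30, 27 and 20 members and LINC00862 libraries 1, 2 and 3 held 46, 49 and 45. The numbers for all genes at this cutoff are not given here, so whether the difference is particular to these members was not tested. PCDHGC3 alone supplied 67.6, 69.6 and 79.7% of the FPKM of all members in the Empty libraries. In the LINC00862 libraries the leading member supplied far less, PCDHB2 with 10.6 and 11.01% in libraries 1 and 2 and PCDHB5 with 11.6% in library 3. By mean FPKM the order in Empty was PCDHGC3 (15.4 ± 3.84), PCDHGB7 (1.84 ± 0.774), PCDHB2 (0.790 ± 0.306), PCDHB14 (0.627 ± 0.216) and PCDHGA1 (0.567 ± 0.776, SD, n = 3 each). PCDHGC3 did not overlap PCDHGB7 in the Empty libraries, and PCDHGB7 (lowest 1.13) lay only just above PCDHB2 (highest 1.08), while the later neighbours in this order overlapped. In LINC00862 the order was PCDHB2 (2.99 ± 0.551), PCDHB5 (2.90 ± 0.111), PCDHGC3 (2.55 ± 0.445), PCDHB16 (2.27 ± 0.0832) and PCDHA12 (2.02 ± 1.02, SD, n = 3 each), and no neighbours in it differed beyond their spread.

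The alpha cluster was almost silent in Empty. In all, 9 of 16 members had no read in any Empty library (PCDHA1, PCDHA2, PCDHA4 to PCDHA9 and PCDHA13), and each had reads in every LINC00862 library. All 14 tested members were higher in LINC00862, against 34.4% of all tested genes, while PCDHA14 and PCDHAC2 did not pass the filter. Apart from PCDHAC1, no tested alpha member had more than 11 reads in an Empty library. These members thus passed the filter through the LINC00862 libraries, where they are high. The count of 14 is therefore a description and tests nothing. The fitted median log2 fold change was 8.07, and 4.33 with the members at 0 in Empty set at the lower bound that 3 reads per Empty library allow.

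PCDHA12 had the highest alpha level. It had 4, 0 and 4 reads in Empty and 1235, 822 and 338 in LINC00862 (log2 fold change 8.21, standard error 0.69, adjusted p = 9.73e-06). PCDHA11 had 0, 0 and 4 reads in Empty and 440, 424 and 353 in LINC00862 (8.20, standard error 0.71, adjusted p = 1.2e-05). PCDHA10 had 0, 11 and 7 reads in Empty and 584, 473 and 476 in LINC00862 (6.45, standard error 0.68, adjusted p = 3.92e-05). The groups of all 3 genes were far apart. Without Empty library 1 or 2 the value of PCDHA10 was 5.85 or 7.24, and that of PCDHA11 was 7.62 without Empty library 1, while without Empty library 3 it had no Empty read left. Within LINC00862 PCDHA10 and PCDHA11 were even while PCDHA12 was highest in library 1.

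Members without a read in Empty were led by PCDHA13, PCDHA6 and PCDHA8. PCDHA13 had 110, 63 and 271 reads in the LINC00862 libraries, at least 55.02-fold higher than the floor of 3 reads per Empty library (adjusted p = 0.000348). PCDHA6 had 35, 220 and 97 reads, at least 42.8-fold higher (adjusted p = 0.000625), and PCDHA8 had 159, 19 and 30 reads, at least 23.1-fold higher (adjusted p = 0.00168). Each was highest in a different LINC00862 library, PCDHA8 in library 1, PCDHA6 in library 2 and PCDHA13 in library 3. Leaving out that library lowered the bound to 9.35-fold for PCDHA8, 24.8-fold for PCDHA6 and 28.8-fold for PCDHA13, so the bound of PCDHA8 and its place among the leading 3 rested on LINC00862 library 1. For the other 6 the bounds lay between 4.56-fold for PCDHA4, which had 12, 12 and 14 reads, and 17.5-fold for PCDHA2. That of PCDHA5 was 16.8-fold, and 10.97-fold without LINC00862 library 1.

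The C-type members of the alpha cluster were PCDHAC1 and PCDHAC2. PCDHAC1 had the highest mean FPKM of the cluster in Empty (0.0410 ± 0.0312, SD, n = 3), with 13, 36 and 10 reads, and had 157, 331 and 146 in LINC00862 (log2 fold change 3.50, standard error 0.60, adjusted p = 0.000753), or 4.32 without Empty library 2. PCDHAC2 had 0, 0 and 3 reads in Empty and 8, 204 and 266 in LINC00862. It missed the filter because of its low count in LINC00862 library 1, and the pooled ratio of its reads was 170 (exact 95% interval 57.9 to 828, counting error only). When any of Empty libraries 1, 2 or 3 or LINC00862 library 1 was left out, PCDHAC2 passed the filter and was called, and 15 alpha members were then higher. Leaving out a library also loosened the filter, which kept 21811 genes without Empty library 1 against 20741 with all libraries. A pass without an Empty library thus cannot be put down to that library alone.

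Alpha members varied among the LINC00862 libraries much more than their sum did. For 14 members with a mean of at least 20 reads in LINC00862, the highest library exceeded the lowest by a median of 2.95-fold after TMM scaling, from 1.08-fold for PCDHA11 to 41.3-fold for PCDHAC2. The summed alpha level lay between 41.3 and 48.5 CPM in the same libraries. PCDHA12 supplied 50.1, 35.5 and 19.7% of the alpha FPKM in LINC00862 libraries 1, 2 and 3.

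**Figure D3:**
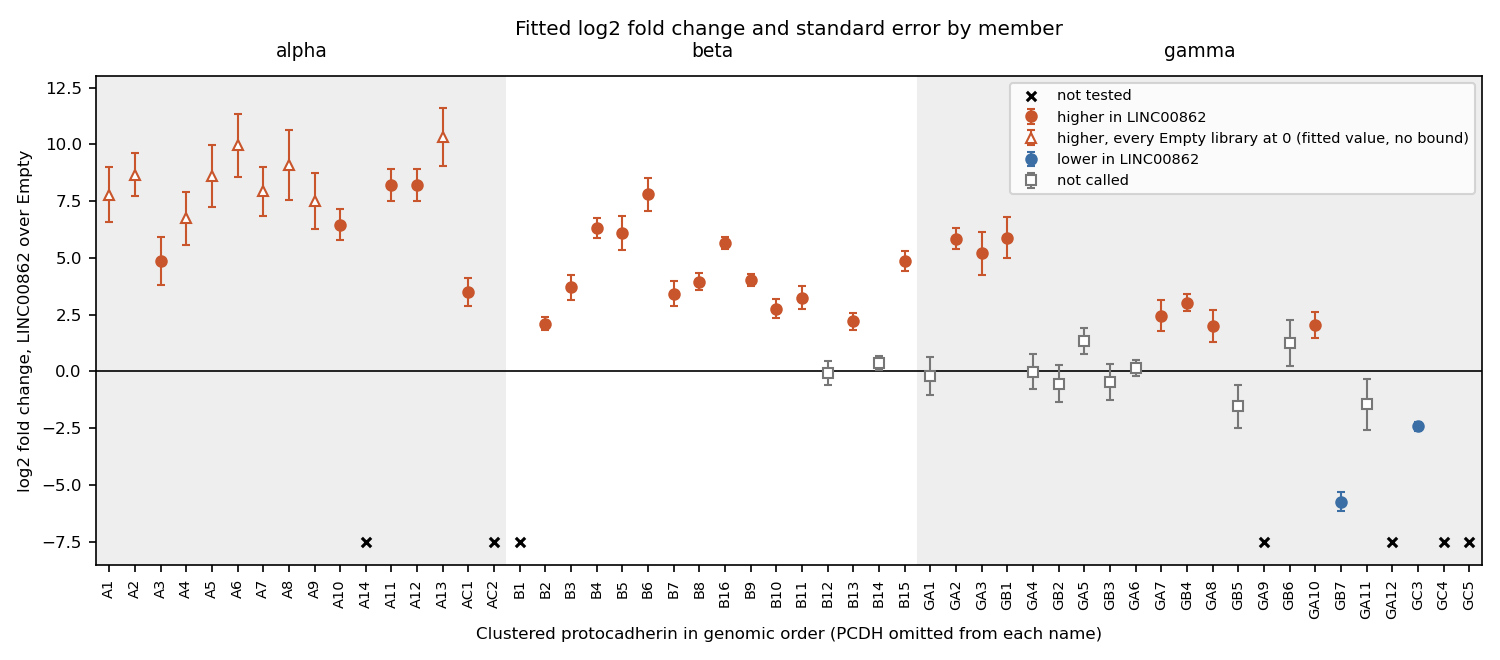
Log2 fold change of LINC00862 over Empty from edgeR for each tested member in genomic order, with bars of 1 standard error. Open triangles are members at 0 in every Empty library, whose fitted values are no bound, open squares were not called, and crosses at the bottom were not tested. PCDHGB7 and PCDHGC3 are the members called lower.

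The beta cluster as a sum was expressed in both groups. Of its 15 tested members 13 (86.7%) were higher in LINC00862, against 34.4% of all tested genes, with a median log2 fold change of 3.70. Some of the 13, such as PCDHB3, PCDHB4 and PCDHB6, had at most 7 reads in any Empty library. These passed the filter through the LINC00862 libraries, so the count of 13 is a description and tests nothing. PCDHB12 and PCDHB14 were not called, and PCDHB1, the most upstream member, had no read in Empty, 4, 0 and 16 in LINC00862, and was not tested.

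PCDHB2 was the beta member with the highest mean level. It had 295, 218 and 130 reads in Empty and 961, 948 and 663 in LINC00862 (log2 fold change 2.10, standard error 0.29, adjusted p = 2e-04). PCDHB5 had 9, 0 and 23 reads in Empty and 722, 669 and 675 in LINC00862 (6.09, standard error 0.75, adjusted p = 0.000101). These 2 genes reached about the same FPKM in LINC00862, 2.99 ± 0.551 and 2.90 ± 0.111 (SD, n = 3), from unequal levels of 0.790 ± 0.306 and 0.0455 ± 0.0503 in Empty. Without Empty library 3 the log2 fold change of PCDHB5 was 7.37.

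PCDHB16 had 19, 14 and 18 reads in Empty and 849, 737 and 795 in LINC00862 (log2 fold change 5.64, standard error 0.26, adjusted p = 3.17e-07). PCDHB9 had 45, 41 and 26 against 635, 568 and 513 (4.03, standard error 0.28, adjusted p = 3.24e-06), and PCDHB8 had 22, 22 and 14 against 283, 366 and 205 (3.96, standard error 0.37, adjusted p = 1.78e-05). These 3 genes adjoin each other in the middle of the cluster, and none of their libraries overlapped between the groups.

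The largest rises of the cluster, beside PCDHB5, were in PCDHB4 and PCDHB6. PCDHB4 had 4, 2 and 2 reads in Empty and 194, 215 and 209 in LINC00862 (log2 fold change 6.32, standard error 0.44, adjusted p = 3.12e-06). PCDHB6 had 3, 0 and 0 reads in Empty and 282, 205 and 217 in LINC00862, a ratio of 251 (exact 95% interval 85.4 to 1218, counting error only, adjusted p = 1.68e-05), and its Empty reads all came from library 1. PCDHB4, PCDHB5 and PCDHB6 are neighbours in the upstream part of the cluster. The other called members, PCDHB3, PCDHB7, PCDHB10, PCDHB11, PCDHB13 and PCDHB15, had log2 fold changes from 2.21 (PCDHB13) to 4.86 (PCDHB15).

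PCDHB14 and PCDHB12 overlapped between the groups. PCDHB14 had 276, 183 and 142 reads in Empty and 264, 260 and 196 in LINC00862 (log2 fold change 0.37, standard error 0.29, adjusted p = 0.29). PCDHB12 had 31, 15 and 33 reads in Empty and 19, 31 and 20 in LINC00862 (-0.06, standard error 0.52, adjusted p = 0.926). Both lie near the downstream end of the cluster, with PCDHB13 between them, which had 50, 60 and 27 reads in Empty and 250, 186 and 163 in LINC00862 (2.21, standard error 0.37, adjusted p = 0.000709). The promoters of PCDHB12 and of PCDHB4 and PCDHB5, printed above, all carried GGTGGCGCT. Beta members were the steadiest of the 3 clusters, with a median ratio of the highest to the lowest library of 1.34 in LINC00862 (15 members with a mean of at least 20 reads) and 1.9 in Empty (6 members).

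The gamma cluster was lower as a sum, while most of its members were not called or were higher. Of its 18 tested members 7 were higher in LINC00862 (PCDHGA2, PCDHGA3, PCDHGB1, PCDHGA7, PCDHGB4, PCDHGA8 and PCDHGA10), 2 were lower (PCDHGB7 and PCDHGC3) and 9 were not called. The share higher was 38.9%, near the 34.4% of all tested genes, and the share lower 11.1% against 29.8%. PCDHGA9, PCDHGA12, PCDHGC4 and PCDHGC5 did not pass the filter. The median log2 fold change was 0.71.

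PCDHGC3, a C-type member, was the most abundant clustered protocadherin in Empty. It had 7048, 4270 and 5312 reads in Empty and 1215, 952 and 750 in LINC00862. Its FPKM was 15.4 ± 3.84 in Empty and 2.55 ± 0.445 in LINC00862 (SD, n = 3 each), with a log2 fold change of -2.42 (standard error 0.19, adjusted p = 6.2e-06). It remained the leading gamma member in LINC00862. The other C-type members of the cluster were low, PCDHGC4 with 18, 10 and 8 reads in Empty and 4, 4 and 3 in LINC00862, and PCDHGC5 with 69, 17 and 5 against 4, 4 and 5. Their FPKM was lower in every LINC00862 library than in every Empty library, but neither passed the filter. Without Empty library 3, PCDHGC5 passed it and was called, and 3 gamma members were then lower. The filter was looser in that fit, with 21938 genes kept against 20741.

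PCDHGB7, from the downstream part of the variable region, fell by 5.73 on the log2 scale (standard error 0.42, adjusted p = 4.3e-06), with 876, 561 and 374 reads in Empty and 10, 8 and 13 in LINC00862. Without PCDHGC3 the summed gamma level was 1.10-fold higher in LINC00862, and without both PCDHGC3 and PCDHGB7 it was 1.96-fold higher, with 1424, 503 and 391 reads in Empty and 1527, 1494 and 1120 in LINC00862. Without Empty library 1, which held most of the remaining Empty reads, the latter difference was 3.16-fold, and without each of the other libraries it was 1.59-fold to 2.05-fold. The former ranged from 0.911-fold without Empty library 3 to 1.56-fold without Empty library 1 and so had no stable direction. These ranges were added after the data had been seen.

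The rises were largest in PCDHGA2, PCDHGA3 and PCDHGB1, near the upstream end of the cluster. PCDHGA1, the most upstream member, was not called (log2 fold change -0.2). Neither were PCDHGA4 (-0.01) and PCDHGB2 (-0.54), which come next downstream. PCDHGA2 had 12, 3 and 4 reads in Empty and 404, 335 and 295 in LINC00862 (log2 fold change 5.85, standard error 0.47, adjusted p = 7.32e-06). PCDHGA3 had 4, 0 and 0 against 70, 38 and 43 (5.21, standard error 0.95, adjusted p = 0.0011), and PCDHGB1 had 2, 0 and 0 against 59, 40 and 33, a ratio of 70.5 (exact 95% interval 19.1 to 588, counting error only, adjusted p = 0.000381). Without Empty library 1, which held all Empty reads of PCDHGA3 and PCDHGB1, the value of PCDHGA2 was 6.61. These 3 genes follow each other on the chromosome, and none of their libraries overlapped between the groups. The other 4 called members had log2 fold changes of 3.02 (PCDHGB4), 2.45 (PCDHGA7), 2.05 (PCDHGA10) and 1.99 (PCDHGA8). PCDHGA8 was at 3.16 without Empty library 2. The call of PCDHGA10 was lost without LINC00862 library 2 (log2 fold change 1.34, adjusted p = 0.0576), and that of PCDHGA8 without any of Empty libraries 1 and 3 and LINC00862 libraries 1, 2 and 3 (1.63, 1.67, 2.04, 2.15 and 1.76, adjusted p = 0.0772, 0.0809, 0.0695, 0.0533 and 0.110).

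PCDHGA1 and PCDHGB2 were uneven among the Empty libraries. PCDHGA1 had 607, 37 and 63 reads in Empty and 222, 172 and 153 in LINC00862 (log2 fold change -0.20, standard error 0.83, adjusted p = 0.844). Without Empty library 1 the sign turned and the gene was called, at 1.9 (adjusted p = 0.00208). PCDHGB2 had 281, 46 and 32 reads in Empty and 38, 140 and 41 in LINC00862 (-0.54, standard error 0.82, adjusted p = 0.587), and its groups overlapped. Its value was 0.96 without Empty library 1 and -1.42 without LINC00862 library 2. PCDHGA6, in the middle of the cluster, also overlapped between the groups, with 116, 86 and 139 reads in Empty and 98, 106 and 143 in LINC00862 (0.15, standard error 0.36, adjusted p = 0.734). The remaining members that were not called (PCDHGA4, PCDHGA5, PCDHGA11, PCDHGB3, PCDHGB5 and PCDHGB6) had log2 fold changes from -1.53 to 1.34. Of these, PCDHGA5 was called without Empty library 3 (1.94, adjusted p = 0.0192) and PCDHGB6 without Empty library 1 (3.36, adjusted p = 0.0199). The highest library exceeded the lowest by a median of 4.95-fold in Empty (13 gamma members with a mean of at least 20 reads), up to 14.6-fold for PCDHGA1, and by 1.81-fold in LINC00862 (15 members).

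By subfamily, the A-type gamma members made up 3.91 to 8.36% of the gamma FPKM in Empty and 36.96 to 43.9% in LINC00862, the B-type members 8.03 to 15.2% and 11.9 to 20.6%, and the C-type members 76.4 to 88.1% and 42.4 to 47.8%. In LINC00862 the A-type and C-type shares were thus of similar size, whereas in Empty the C-type share was the larger by far. Of the A-type members 10 were tested, with 5 higher and 5 not called. Of the 7 B-type members 2 were higher, 1 lower and 4 not called. Among all tested genes 34.4% were higher and 29.8% lower, and with so few members these counts are a description. The A-type members called higher include PCDHGA8 and PCDHGA10, whose calls were lost when single libraries were left out.

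The pseudogenes within the clusters gave 2 tested of 5. PCDHB17P, a beta pseudogene, had 3, 1 and 2 reads in Empty and 82, 64 and 40 in LINC00862 (log2 fold change 4.95, standard error 0.60, adjusted p = 9.21e-05). PCDHB18P overlapped between the groups (-0.10, adjusted p = 0.918). A long non-coding RNA that ends just upstream of PCDHGA1, AC005618 (ENSG00000272070), had 0, 8 and 0 reads in Empty and 110, 93 and 93 in LINC00862 (5.22, standard error 0.98, adjusted p = 0.00133). All its Empty reads came from library 2. It lies on the same strand as the gamma members. PCDHGA1, the nearest of them, was not called.

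Genes in and around the clusters were more often lower than higher in LINC00862. From 500 kb before the first to 500 kb after the last member, 66 other genes were listed and 33 tested, with 8 higher, 16 lower and 9 not called, or 24.2% higher and 48.5% lower against 34.4% and 29.8% among all tested genes. Their median log2 fold change was -0.63, against 0.11 for all genes. Among them TAF7, AC005618 (ENSG00000272070) and AC244517 (ENSG00000272108) lie between or within the clusters, and all were higher. The call of AC244517 (2.53, adjusted p = 0.0412) was lost when any library other than Empty 3 was left out. TAF7, a subunit of the general transcription factor TFIID that lies between the beta and gamma clusters, had an FPKM of 37.04 ± 2.30 in Empty and 44.8 ± 1.73 in LINC00862 (SD, n = 3, log2 fold change 0.45, adjusted p = 0.0115). On the upstream side CD14, a receptor for bacterial lipopolysaccharide, was higher (1.88, adjusted p = 9.73e-05), and HBEGF, a ligand of the EGF receptor, was lower (-2.32, adjusted p = 2.01e-06). On the downstream side HDAC3, a histone deacetylase, was lower, at 26.1 ± 1.71 FPKM in Empty and 4.99 ± 1.09 in LINC00862 (SD, n = 3, -2.22, adjusted p = 6.49e-06). DIAPH1, the nearest tested gene beyond the gamma cluster, was not called (0.13, adjusted p = 0.544). ZMAT2, the nearest tested gene before PCDHA1, was lower (-1.46, adjusted p = 0.000368).

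**Figure D4:**
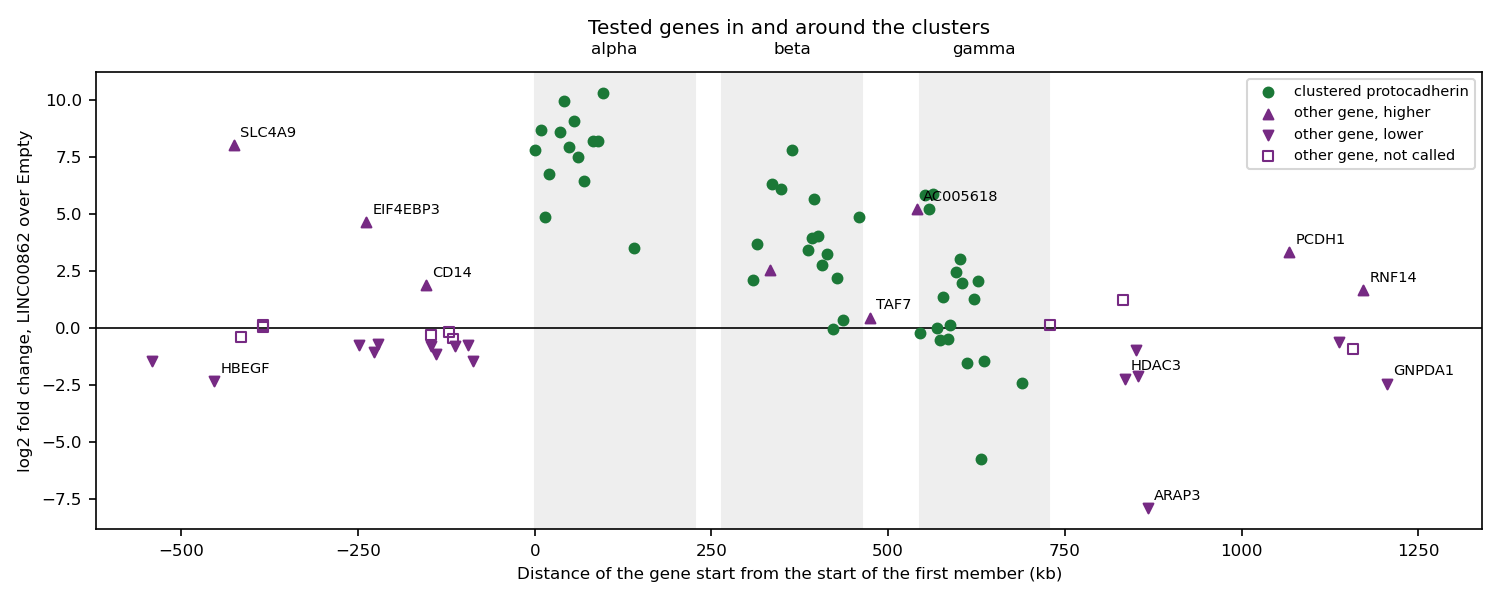
Log2 fold change of LINC00862 over Empty for each tested gene against the distance of its start from that of PCDHA1, in kb, with the 3 clusters shaded. Members of the alpha and beta clusters lie above most of the other genes. Of the other tested genes in and around the clusters, 16 were lower and 8 higher.

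Protocadherins outside the clusters, which are adhesion proteins without the shared gene structure, gave 6 tested of 10 listed, with 4 higher, 1 lower and 1 not called (median log2 fold change 2.63). With 6 genes, the shares of 66.7% higher and 16.7% lower against 34.4% and 29.8% of all tested genes are a description. PCDH20 had no read in Empty and 941, 794 and 845 in LINC00862, at least 306-fold higher (adjusted p = 1.08e-06). PCDH7 had 1132, 647 and 603 reads in Empty and 5228, 4753 and 3927 in LINC00862 (2.65, standard error 0.22, adjusted p = 8.07e-06). PCDH1, which lies downstream of the gamma cluster, and PCDH9 were also higher, at 3.33 (adjusted p = 6.54e-05) and 2.60 (adjusted p = 0.00386). PCDH10 was the member called lower, at -1.91 (adjusted p = 0.0234), with 33, 13 and 35 reads in Empty and 8, 8 and 4 in LINC00862, and this call was lost when any library other than Empty 2 was left out. PCDH12 was not called (-0.91, adjusted p = 0.0556).

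Regulators of chromatin at these genes were called in both directions. Of 19 tested, 4 were higher, 9 lower and 6 not called, or 21.1% higher and 47.4% lower against 34.4% and 29.8% of all tested genes, and their median log2 fold change was -0.56. CTCF, which binds the promoters and enhancers of the clusters, was not called, at 4.87 ± 1.12 FPKM in Empty and 3.89 ± 0.611 in LINC00862 (SD, n = 3, -0.14, standard error 0.17, adjusted p = 0.474). Subunits of cohesin, the ring that holds promoter and enhancer loops, were lower. SMC3 was at 21.5 ± 5.03 FPKM in Empty and 3.75 ± 0.256 in LINC00862 (-2.33, adjusted p = 3.08e-06), and RAD21 at 49.5 ± 11.1 and 26.6 ± 1.57 (-0.71, adjusted p = 0.00296), while SMC1A, STAG1, STAG2 and the cohesin release factors WAPL and PDS5B were also lower. NIPBL, which loads cohesin, was higher (1.03, adjusted p = 0.00239). Of the repressors, SMCHD1, whose loss raises clustered protocadherins in mice, was lower (-0.71, standard error 0.27, adjusted p = 0.0446), a call that was lost when any library other than Empty 3 was left out. SETDB1, the histone methyltransferase that represses the locus in neurons, was higher, at 3.96 ± 0.265 and 16.2 ± 0.736 FPKM (2.21, adjusted p = 1.04e-06), as was ZNF274, a zinc finger protein that recruits it (1.91, adjusted p = 1.29e-05). Of the DNA methyltransferases, the maintenance enzyme DNMT1 was lower (-1.44, adjusted p = 9.47e-05) and DNMT3A higher (1.41, adjusted p = 3.23e-05), while DNMT3B was not called (-0.56, adjusted p = 0.0614). The part of any of these genes in the protocadherin levels was not tested.

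Partners and effectors of the proteins gave shares near those of all tested genes, with 7 higher, 8 lower and 6 not called of 21 tested (median log2 fold change -0.21). The shares were 33.3% higher and 38.1% lower, against 34.4% and 29.8% of all tested genes. The kinase FYN, which binds alpha protocadherins, was at 4.27 ± 0.205 FPKM in Empty and 0.198 ± 0.0669 in LINC00862 (SD, n = 3, -4.20, adjusted p = 2.4e-06). PTK2, the focal adhesion kinase that the cytoplasmic tails inhibit, was lower too (-0.84, adjusted p = 0.00275). In the WAVE complex, which links the tails to actin, WASF1 (-3.14, adjusted p = 7.97e-07), WASF2 (-0.76, adjusted p = 0.0106) and BRK1 (-1.26, adjusted p = 0.000449) were lower, and WASF3 (1.03, adjusted p = 0.00205) and CYFIP2 (2.95, adjusted p = 7.85e-07) were higher. CYFIP1, NCKAP1, ABI1 and ABI2 were not called. ADAM10, the protease that sheds the extracellular part, was lower (-0.85, adjusted p = 0.0106), and among gamma-secretase subunits PSEN2, NCSTN and APH1A were higher, APH1B was lower and PSENEN was not called. The call of NCSTN was lost without Empty library 2 or 3 or LINC00862 library 1 or 2. AXIN1, a scaffold of the Wnt pathway bound by PCDHGC3, was higher (0.56, adjusted p = 0.0104), and this call was lost without LINC00862 library 2. The number of higher genes in this list fell to 4 without LINC00862 library 2.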

How the data were processed

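Polyadenylated RNA of 6 libraries was sequenced with a dUTP strand marking and molecular identifiers in the adapters. For each gene the authors deposited a count and an FPKM value (scaled by transcript length and mapped fragments) per library. The counts are called reads here, but how they were made is not given. At the lowest levels they did not follow FPKM. MIR6831, near the clusters, had a count of 1 in Empty libraries 1, 2 and 3 at 0.00918, 0.00902 and 6e-06 FPKM. The submitters' processing notes name cutadapt 1.9, HISAT2 2.0.4, UMI-tools, StringTie 1.3.4d, DESeq2, edgeR and hg38, without their roles. The deposited columns of the authors' own comparison, a fold change with p and q values, were not used.

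Counts of all genes were tested with edgeR 4.0.16 in R 4.3.3 (filterByExpr, TMM, quasi-likelihood test, Benjamini-Hochberg adjustment over 20741 genes, false discovery rate 0.05). Standard errors were derived from the test statistic. The cluster sums and lists were described without a test. With 3 libraries against 3, an exact permutation test cannot give a two-sided p below 0.1, so none was used. Folds against a group without reads were set against a floor of 3 reads per library, and ratios with 1 to 3 Empty reads carry an exact 95% interval. Both take the deposited counts as observed reads and cover counting error only. The members, lists and motifs were chosen with earlier results of these data known. Members named with values were the 5 of each cluster with the highest mean FPKM, the 3 largest rises and falls among called members, and members of the lists; PCDHAC2, PCDHGC4, PCDHGC5, PCDHGA6, PCDHB1, PCDHB12, PCDHB13 and PCDHB14 were named after their values were seen. Library pairs differed by more than sampling noise, with a chi-square per degree of freedom of at least 17.61. The fits were tested on simulated data. Promoters came from RefSeq and gene models from GENCODE 29. DESeq2 1.42.0, limma 3.58.1, upper quartile and library size scaling, no filter, a replicate block, both pseudocounts on FPKM (1 and 0.1), stricter thresholds and leaving out each library were the alternatives. Leaving out each library for the lower bounds, the reduced gamma sums and the list genes was added after the data had been seen.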

Additional observations from a re-analysis of the deposited data

How the results depend on the processing

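Across all genes the median log2 fold change was 0.11 after TMM scaling, -0.05 with library sizes alone, 0.16 in DESeq2 and 0.32 for the upper quartile. The counts of called alpha, beta and gamma members stayed within 1.5 times under each alternative run. Called higher, leaving out each library in turn gave 14 to 15 alpha, 13 beta and 5 to 8 gamma members, and called lower, 2 to 3 gamma members. The summed gamma log2 ratio was -1.75 from FPKM against -1.45 from counts. Same-numbered libraries did not deviate together (correlations -0.05, -0.03 and -0.01). With 3 libraries per group this cannot show whether they shared a culture or a processing date. A replicate block kept 14 alpha and 13 beta members higher and 6 gamma members higher and 2 lower, and PCDH10 lost its call (0 lower outside the clusters). PCDHGA1 ranged from -0.71 to 1.9 when each library was left out. Over 48 genes and 13 settings, 606 values kept their side of the threshold, 14 lost the call and 3 gained it. The last value, of PCDHGA1 without Empty library 1, changed sign and gained a call. Members not called could change sign among the 606, as PCDHGB2 did without Empty library 1 (-0.54 and then 0.96). Of the lists, a test against a fold change of 2 left 2 chromatin regulators lower (9 otherwise), 2 partners higher (7) and 2 lower (8), 1 neuron marker lower, 1 mesenchymal marker higher, 7 neighbours lower (16) and 0 protocadherins outside the clusters lower. At a false discovery rate of 0.01, 4 partners were higher, 1 neuron marker was higher and 1 lower, and 0 protocadherins outside the clusters were lower. With library size only 2 of these were lower, and leaving out each library gave 0 to 3. Leaving out each library gave 4 to 7 partners higher. Depth limits the members without a read in Empty, for which only lower bounds are given.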
